A study of Mus musculus with 18 samples.

Results

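The endothelial cells that line brain capillaries and the mural cells that wrap them, pericytes and smooth muscle, are a small share of the cells in a brain slice. A list of 42 genes known to mark them was followed through all 18 libraries of a polysome RNA sequencing study, and genes were matched by symbol in the deposited count table. Of the 42, 40 were found among the 13973 genes of the table, 30 endothelial and 10 mural, and 2 (Sox17 and Higd1b) were not analysed here. All 40 passed the low-count filter, as did every gene of the table. By role they were 4 junction genes, 9 receptors, 6 transporters, 9 other surface proteins, 4 secreted proteins, 3 transcription factors and 5 cytosolic or other proteins.

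FMRP, which binds RNA and is missing in fragile X syndrome, is the product of Fmr1. The study asked how FMRP alters ribosome movement on brain mRNAs. Slices of hippocampus and cortex, 400 µm thick, came from male C57BL/6N mice aged 28 to 35 days, either wild type (WT) or with Fmr1 knocked out (KO), and each replicate held 10 slices pooled from 2 or 3 mice. Slices were kept for 30 min at 30 °C with DMSO as vehicle or with homoharringtonine (HHT) at 20 µM, a drug that stalls ribosomes just after initiation and lets elongating ones run off. From each of 6 lysates, 3 libraries were made: input (the cleared lysate) and pooled medium and heavy polysomes from a 15 to 45% sucrose gradient, with pools chosen by FMRP immunoblot. HHT has 2 replicates in each of its 6 groups of genotype and fraction, and vehicle has 1 library in each. Averaged over genotypes, each fraction therefore compares 4 HHT libraries with 2 vehicle libraries. Tissue was broken without detergent, spun at 2000 g and 10000 g, and given 1% NP-40 only afterwards, and all groups share these steps.

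Brain endothelial cells seal the blood-brain barrier with tight and adherens junctions and carry glucose, thyroid hormone and drugs through dedicated transporters, while pericytes answer endothelial platelet-derived growth factor and help keep the barrier closed. Most proteins that mark these cells are made by ribosomes docked on the endoplasmic reticulum (ER), because they start with a signal peptide or hold a membrane-spanning segment. Transcription factors, actin, myosin light chain and regulators of G protein signalling are made on free ribosomes in the cytosol.

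The listed genes split on that point, and the beginnings of 9 coding sequences are shown because the results below follow the split. Each is the first 75 coding bases of the principal transcript in GENCODE M21 (GRCm38, the assembly also named mm10), 5′ to 3′. Capitals mark the 11 codons with the highest mean hydropathy where that mean reached 2.0 on the Kyte-Doolittle scale. Vtn, Egfl7, Cldn5, Bsg, Ly6e and Slc2a1 carry such a stretch, with means of 2.64, 2.81, 2.77, 2.75, 2.93 and 2.19. Myl9, Rgs5 and Acta2 carry none, with best means of -0.19, 0.73 and 0.91.
Vtn: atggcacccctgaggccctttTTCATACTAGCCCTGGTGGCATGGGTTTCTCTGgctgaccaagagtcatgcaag
Egfl7: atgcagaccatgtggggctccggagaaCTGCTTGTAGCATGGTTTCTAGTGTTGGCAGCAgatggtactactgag
Cldn5: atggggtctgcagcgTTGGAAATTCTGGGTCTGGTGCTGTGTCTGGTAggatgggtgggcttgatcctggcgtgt
Bsg: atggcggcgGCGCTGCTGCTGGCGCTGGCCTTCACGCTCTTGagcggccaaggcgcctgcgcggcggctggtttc
Ly6e: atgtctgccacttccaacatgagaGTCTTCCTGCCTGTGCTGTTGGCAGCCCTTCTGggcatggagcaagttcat
Slc2a1: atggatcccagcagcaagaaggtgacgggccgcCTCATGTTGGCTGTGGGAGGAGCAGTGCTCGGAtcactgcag
Myl9: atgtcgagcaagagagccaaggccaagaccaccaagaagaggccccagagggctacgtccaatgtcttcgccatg
Rgs5: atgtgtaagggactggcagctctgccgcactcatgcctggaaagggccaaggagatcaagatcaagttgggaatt
Acta2: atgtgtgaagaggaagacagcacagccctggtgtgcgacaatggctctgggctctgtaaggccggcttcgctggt
On the plus strand, Vtn lies at chr11:78499091-78502324, Egfl7 at chr2:26580014-26593120, Cldn5 at chr16:18776847-18778262, Bsg at chr10:79704491-79711969, Ly6e at chr15:74955051-74959905 and Slc2a1 at chr4:119108711-119137983. Also on the plus strand are Myl9 at chr2:156775420-156781658 and Rgs5 at chr1:169655501-169695813, while Acta2 (chr19:34241090-34255590) lies on the minus strand. A gene was said to hold a hydrophobic segment where a window of 19 residues averaged at least 1.6, or a window of 11 within the first 40 residues at least 2.0. By this measure 33 of the 40 genes held one and 7 did not (Sox18, Erg, Fli1, Myl9, Rgs5, Acta2 and Tagln), against 39.1% of the 13031 genes with a coding sequence.

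Libraries held 6226237 to 13834652 estimated counts, and the lowest count of a listed gene in any library was 2.9. Fmr1 itself stood at 13.9 to 32.2 CPM (the count relative to the library total, scaled by TMM) in the 9 WT libraries and at 4.625 to 8.529 CPM in the 9 KO libraries, with no overlap. Summed over 12 neuronal markers, libraries held 10980 to 18340 CPM, and summed over the 40 vascular genes 296.2 to 1108 CPM. Bsg and Ly6e made up 62.6% of the vascular sum, and cells outside vessels also express both of them and Slc2a1. Per length, on the authors' rescaled TPM scale, the mean level over libraries ran from 1.50 for the angiopoietin receptor Tek to 492 for Bsg, with Ly6e at 245, Slc2a1 at 56.8, Vtn at 27.0 and Egfl7 at 26.7.

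Most of the vascular genes rose under HHT in the input lysate and in medium polysomes, by 1.58-fold to 5.13-fold among those that passed in input. In input 24 of 40 rose and 0 fell at an adjusted p of 0.05 (edgeR quasi-likelihood test, Benjamini-Hochberg over all genes), where 12.2% of all genes rose and 0.215% fell. In medium polysomes 22 rose and 4 fell, against 25.4% and 21.5% of all genes. In heavy polysomes 9 rose and 3 fell, shares close to or below the 27.1% and 24.7% of all genes. The median log2 fold change of the 40 genes was 0.87 in input, 0.70 in medium and 0.38 in heavy, while the median of all genes was 0.00, 0.03 and 0.06.

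In polysomes the direction differed by class of protein. All 32 genes for membrane or secreted proteins were higher under HHT in input and in medium, and 31 of 32 in heavy, with medians of 0.99, 0.82 and 0.49 on the log2 scale. Among these, 22 rose in input, 22 in medium and 9 in heavy, and none fell in any fraction. The 7 genes for proteins made in the cytosol had medians of 0.31, -0.80 and -0.85, with 1 rising in input (Tagln), 4 falling in medium and 3 falling in heavy. Ctla2a, which encodes a protease inhibitor and was left out of both classes, rose in input only. These are bulk libraries, so fewer cells of a type and less RNA per cell cannot be told apart, and each level is a share of the RNA in its own library.

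**Figure D1:**
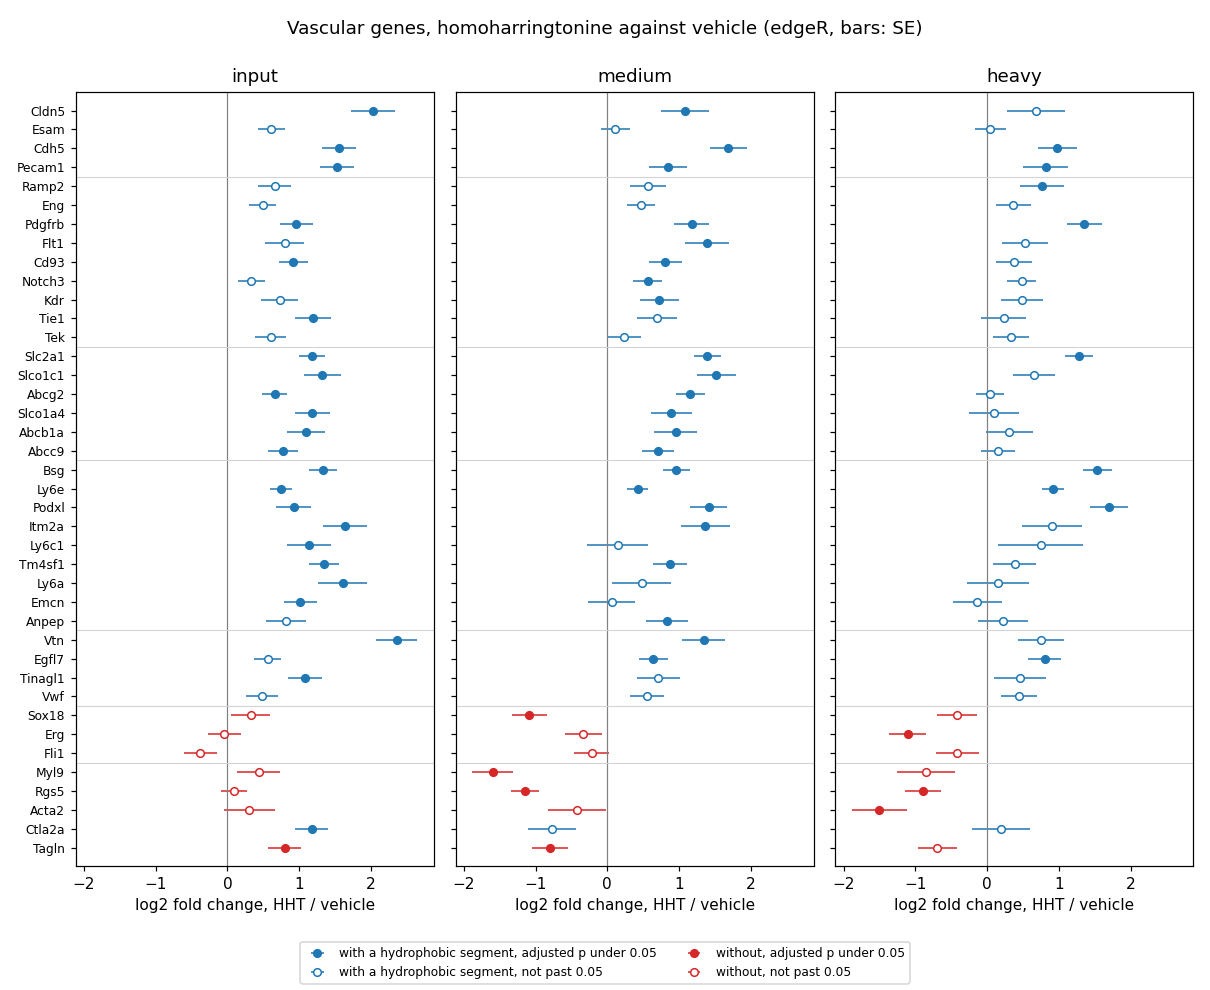
Log2 fold change under HHT against vehicle (x axis, bars are SE from edgeR) for the 40 vascular genes (y axis, grouped by role from junction genes at the top to cytosolic proteins at the bottom) in input, medium and heavy polysomes. Filled points passed an adjusted p of 0.05, blue genes hold a predicted hydrophobic segment and red genes do not. Blue points lie right of 0, from 0.33 to 2.36 in input, except Ctla2a in medium and Emcn in heavy, and red points lie left of 0 in medium and heavy.

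The count in input depended on the fit and on the genotypes compared. DESeq2 called 12 genes in input and 16 in medium, where any gene to which it gave no adjusted p was counted as not called. From the edgeR fit of all 18 libraries, the comparison within WT slices alone called 12 rises and 0 falls in input. Within KO slices alone, 0 passed in the same fit, although 23 had an unadjusted p under 0.05 with edgeR. There 38 of 40 genes were higher and the median was 0.73. Each of these comparisons holds 1 vehicle library, and the spread is shared by both genotypes. HHT replicate 2 libraries of both genotypes had a lower minimum rescaled TPM (0.7722 to 0.9041) than all other libraries (1.004 to 1.043), and whether this marks a batch was not tested. The names of the deposited tables mention 2 batches without saying which libraries belong to each. With HHT replicate 1 alone 28 genes rose in input, 26 in medium and 16 in heavy, and with HHT replicate 2 alone 21, 15 and 7 rose. The fits of 1 HHT replicate dropped genotype, so WT and KO libraries served as replicates. Their spread is that between genotypes, unlike in the main fit. No shares of all genes are set beside the counts of these other fits and comparisons. They therefore do not tell a change in the vascular genes from a change in how many genes passed in general.

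Levels below are in CPM and follow 1 order: WT replicates 1 and 2, then KO replicates 1 and 2 under HHT, set against WT and then KO vehicle. Counts by role, here and below, stand against all genes, of which 12.2% rose in input, 25.4% in medium and 27.1% in heavy. In the same order 0.215%, 21.5% and 24.7% fell. Of all genes with a hydrophobic segment, 31.4%, 48.2% and 52.0% rose and 0.118%, 8.22% and 11.2% fell. Of the 4 junction genes, 3 rose in input and in medium and 2 in heavy. Cldn5 encodes claudin-5, the main tight junction strand protein of brain endothelium. In input it held 10.3, 7.73, 7.17 and 7.503 CPM against 1.47 and 2.71. All 4 HHT values lay above both vehicle values, a log2 fold change of 2.03 ± 0.31 (SE, edgeR adjusted p = 0.00147). In medium it held 4.76, 5.38, 4.73 and 3.901 CPM against 2.51 and 1.94, again without overlap (1.08 ± 0.34, edgeR adjusted p = 0.0177). In heavy it held 4.34, 2.604, 3.94 and 1.64 CPM against 2.21 and 1.61, where the groups overlapped and the difference of 0.68 ± 0.40 did not pass (edgeR adjusted p = 0.175).

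Cdh5 encodes VE-cadherin of the adherens junction, and its counts did not overlap between treatments in any fraction. Input held 12.9, 11.5, 12.4 and 9.24 CPM against 3.85 and 3.98, medium 12.9, 10.8, 9.07 and 8.26 CPM against 3.3 and 2.98, and heavy 11.5, 6.84, 6.598 and 6.27 CPM against 4.61 and 3.22. The rises were 1.56 ± 0.24 in input (edgeR adjusted p = 0.00152), 1.69 ± 0.26 in medium (edgeR adjusted p = 0.000279) and 0.98 ± 0.27 in heavy (edgeR adjusted p = 0.00824). Pecam1, the platelet endothelial adhesion molecule of the junction border, rose in all 3 fractions. Its input values were 6.51, 6.71, 6.42 and 7.85 CPM against 2.38 and 2.37, its medium values 4.45, 3.44, 5.71 and 3.901 CPM against 2.24 and 2.59, and its heavy values 4.04, 3.36, 3.704 and 2.77 CPM against 1.85 and 2.05. The changes were 1.53 ± 0.24 (edgeR adjusted p = 0.0016), 0.84 ± 0.26 (edgeR adjusted p = 0.0181) and 0.82 ± 0.31 (edgeR adjusted p = 0.041). Esam, an immunoglobulin-type adhesion molecule of endothelial junctions, passed in no fraction. It held 5.09, 6.27, 5.13 and 4.31 CPM against 3.17 and 3.55 in input, 4.35, 3.88, 4.14 and 3.81 CPM against 4.49 and 3.11 in medium and 4.19, 3.69, 3.59 and 3.803 CPM against 4.43 and 3.08 in heavy. Only the input values stood apart, and that difference missed the threshold (0.61 ± 0.19, edgeR adjusted p = 0.0511).

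**Figure D2:**
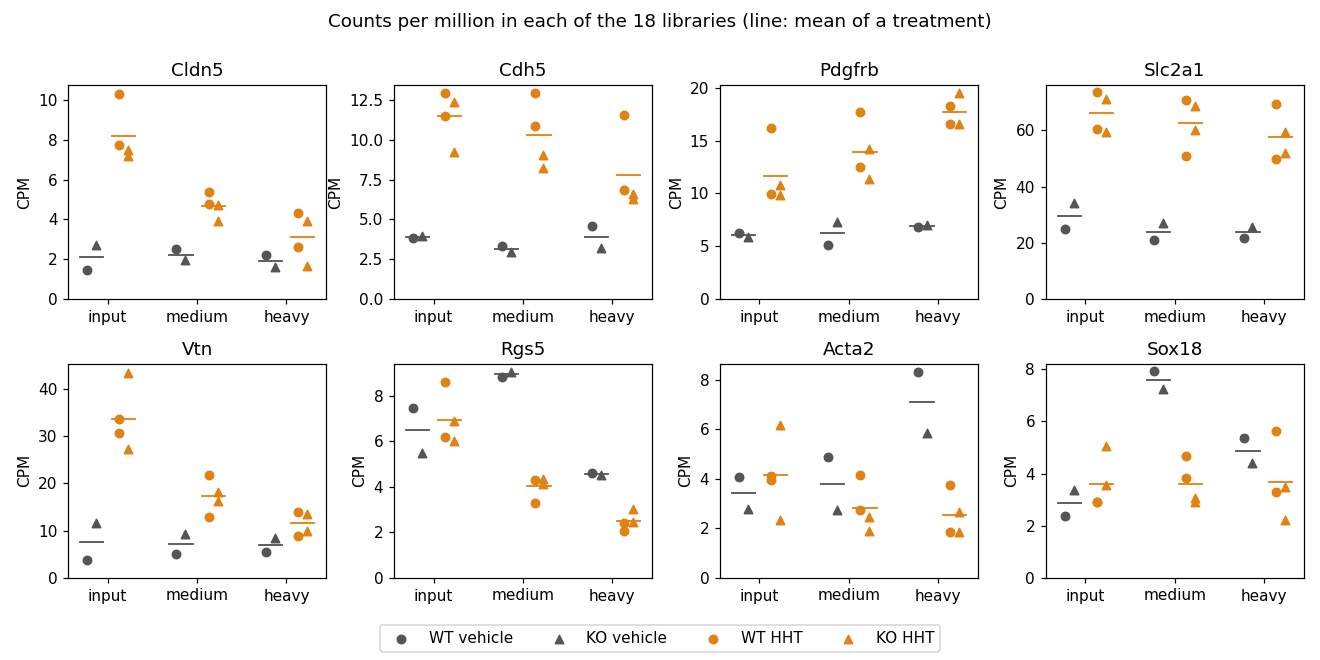
CPM (y axis, from 0) in each library for Cldn5, Cdh5, Pdgfrb, Slc2a1, Vtn, Rgs5, Acta2 and Sox18 by fraction (x axis), with vehicle in grey, HHT in orange, WT as circles, KO as triangles and a line at the mean of each treatment. HHT points lie above vehicle points in input for the 5 genes of membrane or secreted proteins, while Rgs5 lies lower under HHT in both polysome pools, Sox18 in medium and Acta2 in heavy.

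Of 9 receptors, 3 rose in input, 5 in medium and 2 in heavy, and none fell. All 9 hold a hydrophobic segment, and the counts that rose lie near or below the shares of all such genes. Ramp2, the partner that makes the calcitonin-type receptor answer adrenomedullin, had the highest receptor level per length, 16.8 rescaled TPM. It held 5.68, 7.58, 5.66 and 7.503 CPM against 3.96 and 4.32 in input, 6.104, 5.21, 6.31 and 6.89 CPM against 4.49 and 3.75 in medium and 5.24, 3.15, 4.399 and 5.34 CPM against 3.14 and 2.197 in heavy. Its HHT values lay above vehicle in every fraction, and the difference passed in heavy (0.76 ± 0.30, edgeR adjusted p = 0.0485). Eng, the transforming growth factor beta co-receptor endoglin, passed in no fraction. It held 9.65, 9.92, 9.51 and 12.4 CPM against 7.81 and 6.94 in input, 12.7, 10.7, 10.2 and 11.2 CPM against 8.84 and 7.38 in medium and 7.19, 4.99, 5.79 and 4.73 CPM against 4.799 and 3.95 in heavy, without overlap in the first and second of these.

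Pdgfrb, the receptor through which pericytes answer platelet-derived growth factor, rose in every fraction. Input held 16.2, 9.92, 10.8 and 9.87 CPM against 6.23 and 5.84, medium 17.7, 12.5, 14.2 and 11.3 CPM against 5.15 and 7.25, and heavy 18.3, 16.6, 16.6 and 19.5 CPM against 6.83 and 7.03. The lowest HHT value was above the highest vehicle value each time, and the size was 0.96 ± 0.23 in input (edgeR adjusted p = 0.014), 1.18 ± 0.24 in medium (edgeR adjusted p = 0.00154) and 1.35 ± 0.25 in heavy (edgeR adjusted p = 0.00042). Flt1, a receptor for vascular endothelial growth factor (VEGF), rose in medium (1.39 ± 0.31, edgeR adjusted p = 0.00236). In input (0.80 ± 0.27, edgeR adjusted p = 0.0812) and heavy (0.53 ± 0.32, edgeR adjusted p = 0.191) it did not pass. Tie1, an orphan receptor kinase of endothelium, rose in input (1.19 ± 0.25, edgeR adjusted p = 0.00683), and Cd93, a lectin-like endothelial glycoprotein, in input (0.92 ± 0.20, edgeR adjusted p = 0.00821) and medium (0.81 ± 0.23, edgeR adjusted p = 0.0115). Kdr, the main VEGF receptor, rose in medium (0.72 ± 0.27, edgeR adjusted p = 0.0399), as did the mural Notch receptor Notch3 (0.56 ± 0.20). Tek, the angiopoietin receptor, passed in no fraction.

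All 6 transporters rose in input and all 6 in medium, whereas 1 of 6 rose in heavy. Slc2a1 encodes the glucose carrier GLUT1. It held 73.5, 60.5, 71.1 and 59.5 CPM against 25.02 and 34.01 in input, 70.7, 50.8, 68.6 and 60.05 CPM against 20.9 and 27.1 in medium and 69.4, 49.8, 59.4 and 51.8 CPM against 21.6 and 25.8 in heavy. Every HHT value was above every vehicle value, by 1.18 ± 0.18 in input (edgeR adjusted p = 0.00163), 1.39 ± 0.19 in medium (edgeR adjusted p = 0.000153) and 1.28 ± 0.19 in heavy (edgeR adjusted p = 9.87e-05). Slco1c1 carries thyroid hormone. It held 17.6, 15.9, 19.8 and 19.4 CPM against 6.68 and 7.87 in input, 18, 18.97, 21.1 and 20.1 CPM against 5.94 and 7.77 in medium and 13.6, 6.73, 14.2 and 8.43 CPM against 6.46 and 7.03 in heavy, and its rises were 1.32 ± 0.26 in input (edgeR adjusted p = 0.00425) and 1.52 ± 0.27 in medium (edgeR adjusted p = 0.000603). In heavy, WT replicate 2 under HHT fell within the vehicle range and the difference did not pass.

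Abcg2, the breast cancer resistance protein that pumps drugs back into blood, held 9.05, 7.15, 9.06 and 8.47 CPM against 5.43 and 5.33 in input, 9.21, 8.29, 9.66 and 7.98 CPM against 3.83 and 4.01 in medium and 8.54, 8.68, 6.25 and 7.09 CPM against 6.64 and 8.202 in heavy. Its rise was larger in medium (1.16 ± 0.20, edgeR adjusted p = 0.000491) than in input (0.66 ± 0.18, edgeR adjusted p = 0.0255) by value, and the test of that difference did not pass (edgeR adjusted p = 0.233). Slco1a4, a carrier of organic anions, and Abcb1a, the P-glycoprotein efflux pump, rose in input by 1.18 ± 0.24 (edgeR adjusted p = 0.00572) and 1.10 ± 0.26 (edgeR adjusted p = 0.0134). In medium they rose by 0.89 ± 0.29 and 0.96 ± 0.30 (edgeR adjusted p = 0.0201 and 0.0177). Abcc9, the sulfonylurea receptor subunit of the potassium channel of pericytes, rose in input and medium too. Slco1a4 and Abcb1a have close paralogs whose reads the authors' counting could have split.

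Of 9 other surface proteins, 8 rose in input, 6 in medium and 3 in heavy. Bsg, the immunoglobulin-type chaperone of monocarboxylate carriers, held 389.8, 405, 374 and 451 CPM against 134 and 191 in input. Medium held 287, 234, 308 and 251 CPM against 133 and 144 and heavy 252, 162, 242 and 175 CPM against 61.3 and 84.1. The treatments did not overlap, and the rises were 1.34 ± 0.19 (edgeR adjusted p = 0.00125), 0.96 ± 0.19 (edgeR adjusted p = 0.00127) and 1.53 ± 0.20 (edgeR adjusted p = 3.64e-05). Ly6e, a small protein held on the membrane by a lipid anchor, held 243, 226, 246 and 321 CPM against 138 and 171 in input, 214, 177, 234 and 208 CPM against 152 and 158 in medium and 174, 136, 171 and 157 CPM against 77.9 and 90.7 in heavy. It rose by 0.75 ± 0.15 (edgeR adjusted p = 0.00462), 0.43 ± 0.15 (edgeR adjusted p = 0.0283) and 0.92 ± 0.15 (edgeR adjusted p = 0.000189).

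Podxl, the sialomucin podocalyxin of the endothelial lumen, had by value its smallest rise in input and its largest in heavy. It held 29.02, 17.4, 23.6 and 14.2 CPM against 9.62 and 12.9 in input, 32.5, 27.1, 30.1 and 24.7 CPM against 9.64 and 11.9 in medium and 38.4, 35.05, 35.8 and 29.3 CPM against 11.1 and 10.2 in heavy. The rises were 0.92 ± 0.25 (edgeR adjusted p = 0.0231), 1.41 ± 0.26 (edgeR adjusted p = 0.000682) and 1.69 ± 0.26 (edgeR adjusted p = 0.000125), and the test of the difference between heavy and input did not pass (edgeR adjusted p = 0.123). Itm2a, a single-span membrane protein, rose in input by 1.64 ± 0.31 (edgeR adjusted p = 0.00373) and in medium by 1.37 ± 0.34 (edgeR adjusted p = 0.00522). The lipid-anchored Ly6a (1.61 ± 0.34, edgeR adjusted p = 0.00638) and the tetraspanin-like Tm4sf1 (1.35 ± 0.21, edgeR adjusted p = 0.00163) rose in input, and Tm4sf1 also in medium (0.87 ± 0.24, edgeR adjusted p = 0.00819). Ly6c1, a relative of Ly6a, and the sialomucin Emcn rose in input only. The pericyte aminopeptidase Anpep rose in medium only. Reads of Ly6a and Ly6c1 could be shared with near-identical genes of their family, so their split is uncertain.

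All 4 secreted proteins were higher under HHT in every fraction, and 2 passed in input, 2 in medium and 1 in heavy. Vtn, the adhesive glycoprotein vitronectin that brain pericytes release, had the largest rise of the 40 genes in input. It held 30.7, 33.7, 27.2 and 43.4 CPM against 3.74 and 11.5 in input, a 5.13-fold rise (2.36 ± 0.29, edgeR adjusted p = 0.00097). The KO vehicle value was well above the WT one, and both lay below every HHT library. It held 21.8, 12.9, 18.1 and 16.3 CPM against 5.02 and 9.19 in medium (1.34 ± 0.30, edgeR adjusted p = 0.00242) and 13.9, 8.79, 13.5 and 9.87 CPM against 5.54 and 8.35 in heavy (0.75 ± 0.32, edgeR adjusted p = 0.0643).

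Egfl7, a secreted regulator of vessel growth, held 13.5, 13.6, 16 and 14.5 CPM against 9.28 and 10.2 in input, 10.7, 11.6, 14.6 and 12.7 CPM against 8.05 and 7.77 in medium and 15.7, 9.66, 9.03 and 8.12 CPM against 5.35 and 6.59 in heavy. The treatments did not overlap in any fraction, and the rise passed in medium (0.64 ± 0.20, edgeR adjusted p = 0.0191) and heavy (0.80 ± 0.23, edgeR adjusted p = 0.00919). Tinagl1 is a basement membrane protein of low level. It held 2.99, 3.21, 2.72 and 3.06 CPM against 1.36 and 1.44 in input, 2.07, 1.59, 1.48 and 2.18 CPM against 1.19 and 1.03 in medium and 1.498, 1.19, 1.505 and 1.23 CPM against 0.923 and 1.02 in heavy, and it rose in input (1.09 ± 0.24, edgeR adjusted p = 0.00784). Vwf, the clotting protein stored in endothelial granules, passed in no fraction. Its values were 6.36, 6.56, 5.81 and 5.35 CPM against 4.64 and 3.98 in input, 8.28, 4.94, 5.62 and 5.53 CPM against 4.09 and 4.14 in medium and 6.89, 6.08, 7.52 and 5.86 CPM against 4.799 and 4.83 in heavy, with HHT above vehicle throughout.

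None of the 3 transcription factors rose in any fraction. Sox18, an endothelial factor needed for lymphatic fate, held 2.92, 2.92, 3.55 and 5.07 CPM against 2.38 and 3.38 in input, where the treatments overlapped. In medium it held 3.83, 4.67, 3.06 and 2.903 CPM against 7.92 and 7.25, with every HHT value below both vehicle values (-1.08 ± 0.24, edgeR adjusted p = 0.00233). In heavy it held 3.296, 5.64, 2.199 and 3.49 CPM against 5.35 and 4.39, and the difference did not pass. Erg, an ETS factor that maintains endothelial identity, held 2.77, 3.79, 3.17 and 2.99 CPM against 3.06 and 3.38 in input, 1.97, 2.38, 2.96 and 1.996 CPM against 3.3 and 2.59 in medium and 2.25, 1.95, 1.85 and 2.77 CPM against 5.35 and 4.25 in heavy. It fell in heavy only (-1.11 ± 0.26, edgeR adjusted p = 0.00233). Fli1, its close relative, held 2.62, 1.896, 2.19 and 2.71 CPM against 3.28 and 2.96 in input, 2.17, 2.999, 2.86 and 2.27 CPM against 2.904 and 3.11 in medium and 1.65, 2.39, 1.85 and 1.54 CPM against 1.85 and 3.37 in heavy, and passed in no fraction.

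None of the 4 cytosolic mural genes rose in polysomes. Myl9 encodes the regulatory light chain of smooth muscle myosin. It held 3.44, 5.25, 3.09 and 6.74 CPM against 3.51 and 3.21 in input, 3.52, 3.26, 1.87 and 2.81 CPM against 11.1 and 6.601 in medium and 2.097, 1.95, 1.505 and 1.44 CPM against 3.69 and 2.64 in heavy. Input overlapped, and medium fell 3.02-fold without overlap (-1.59 ± 0.29, edgeR adjusted p = 0.000652). Rgs5, which damps G protein signals in pericytes, held 6.21, 8.61, 6.04 and 6.88 CPM against 7.47 and 5.499 in input, 3.31, 4.32, 4.14 and 4.35 CPM against 8.84 and 9.06 in medium and 2.397, 2.06, 3.01 and 2.47 CPM against 4.61 and 4.54 in heavy. It fell in medium (-1.15 ± 0.19, edgeR adjusted p = 0.000452) and in heavy (-0.90 ± 0.25, edgeR adjusted p = 0.00857), with input overlapping (0.09 ± 0.19, edgeR adjusted p = 0.873).

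Acta2, smooth muscle actin, held 4.11, 3.94, 2.34 and 6.18 CPM against 4.08 and 2.79 in input, 4.14, 2.73, 1.87 and 2.45 CPM against 4.88 and 2.72 in medium and 3.75, 1.84, 2.66 and 1.85 CPM against 8.31 and 5.86 in heavy. Only heavy stood apart, a 2.84-fold fall (-1.50 ± 0.38, edgeR adjusted p = 0.00453). In input (0.31 ± 0.36, edgeR adjusted p = 0.746) and medium (-0.42 ± 0.40, edgeR adjusted p = 0.425) it did not pass, and reads of other actin genes could be counted with it. Tagln, the actin-binding protein transgelin, moved both ways, up in input (0.80 ± 0.23, edgeR adjusted p = 0.0354) and down in medium (-0.80 ± 0.25, edgeR adjusted p = 0.0207). Ctla2a, whose near-identical neighbour could share its reads, rose in input (1.17 ± 0.23, edgeR adjusted p = 0.00435) and stood at -0.77 ± 0.34 in medium (edgeR adjusted p = 0.0903).

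Across fractions, 7 genes rose in all of input, medium and heavy: Bsg, Cdh5, Ly6e, Pdgfrb, Pecam1, Podxl and Slc2a1. A further 10 rose in input and medium but did not pass in heavy, and 30 rose in at least 1 fraction. In all, 6 fell in at least 1 fraction, and 5 (Eng, Esam, Fli1, Tek and Vwf) passed in none. The shares of all genes with these combinations were not computed, so the counts describe the list alone. By cell class, 19 of 30 endothelial and 5 of 10 mural genes rose in input. In medium 17 endothelial genes rose and 1 fell, while 5 mural genes rose and 3 fell. In heavy the counts were 8 and 1 for endothelial and 1 and 2 for mural genes. Over all genes 12.2% rose in input, 25.4% in medium and 27.1% in heavy, while 0.215%, 21.5% and 24.7% fell.

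A split by segment was also seen over the whole table, less fully, so the vascular counts are set beside it. Of 5098 genes with a hydrophobic segment, 31.4% rose in input, 48.2% in medium and 52.0% in heavy, while 0.118%, 8.22% and 11.2% fell. Of 7933 genes without one, 0.265% fell in input, 30.9% in medium and 35.1% in heavy, while 0.479%, 12.0% and 11.5% rose. Of the 33 vascular genes with a segment, 23 (69.7%) rose in input, 22 (66.7%) in medium and 9 (27.3%) in heavy, where other genes with a segment rose in 31.2%, 48.1% and 52.2% of cases. The vascular median among genes with a segment was 1.02, 0.81 and 0.48 on the log2 scale, against 0.38, 0.48 and 0.65 for other such genes. The vascular genes thus stood above other segment-bearing genes by count and median in input and medium and below them in heavy, as a description without a test. The input rise was not particular to them. Input medians of segment-bearing markers were 0.988 for fibroblasts, 0.959 for microglia, 0.888 for astrocytes and 1.112 for choroid plexus and ependyma. For oligodendrocytes, neurons, perivascular macrophages and blood cells they were 0.783, 0.381, 0.21 and 0.489. Heavy medians in the same order were 0.29, 0.092, 0.931, 0.53, 1.204, 0.43, 0.06 and 0.073.

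Sums over the genes were taken in each library. Without Bsg and Ly6e, the vascular genes summed to 325 to 359.8 CPM in the 4 HHT input libraries and to 158 and 181 CPM in the 2 vehicle input libraries. In medium the sums were 264 to 326 against 167 and 171 CPM, and in heavy 227 to 292 against 157 and 160.4 CPM. The 7 genes without a segment summed to 23.1 to 33.8 CPM under HHT against 23.0 and 25.4 in input, where the ranges overlapped. In medium they summed to 17.9 to 22.1 against 34.0 and 41.3 CPM, and in heavy to 14.2 to 17.6 against 27.7 and 31.9 CPM, without overlap.

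The share of each mRNA in a polysome library relative to its share in the lysate library was read as the log2 ratio of medium or heavy to input. Each library was scaled on its own, so a change in the total RNA of a polysome pool would not show in these ratios. A ratio above 0 is a larger share and need not be a larger amount in polysomes. In vehicle slices 2 genes rose in medium over input (Sox18 by 1.41 ± 0.29, edgeR adjusted p = 0.00757, and Myl9 by 1.35 ± 0.33, edgeR adjusted p = 0.0156) and 0 fell, against 10.2% and 9.5% of all genes. In heavy over input under vehicle 0 rose and 4 fell (Bsg, Ly6e, Eng and Egfl7), against 24.8% and 21.7%. Bsg fell by 1.16 on the log2 scale (SE 0.22, edgeR adjusted p = 0.000855) and Ly6e by 0.87 (SE 0.17, edgeR adjusted p = 0.00103).

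Under HHT the ratios were lower for most of the genes. In medium over input 0 rose and 14 fell, against 13.4% and 17.0% of all genes, with a median of -0.32. In heavy over input 3 rose and 26 fell, against 27.6% and 30.4%, with a median of -0.73 where that of all genes was -0.04. The 3 that rose were the receptors Pdgfrb (0.59 ± 0.17, edgeR adjusted p = 0.00851) and Notch3 (0.50 ± 0.14, edgeR adjusted p = 0.00935) and the sialomucin Podxl (0.71 ± 0.18, edgeR adjusted p = 0.00466). The lowest heavy ratios were those of Ctla2a (-1.88 ± 0.21, edgeR adjusted p = 9.57e-06), Ly6c1 (-1.83 ± 0.28, edgeR adjusted p = 0.000122), Vtn (-1.56 ± 0.21, edgeR adjusted p = 4.13e-05) and Rgs5 (-1.47 ± 0.18, edgeR adjusted p = 1.94e-05). Cldn5 stood at -1.43 ± 0.23 (edgeR adjusted p = 0.000145) and Cdh5 at -0.60 ± 0.17 (edgeR adjusted p = 0.00935), while Flt1 (-0.36 ± 0.21, edgeR adjusted p = 0.164) and Acta2 (-0.76 ± 0.32, edgeR adjusted p = 0.0523) did not pass. For medium over input, 7 genes passed in place of 14 if WT HHT replicate 2 was left out, and 6 if KO HHT replicate 2 was.

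The change of the ratio itself with HHT was then tested. For medium over input 0 rose and 5 fell, against 7.09% and 10.2% of all genes, and 4 of the 5 lack a segment. Myl9 shifted by -2.03 ± 0.41 (edgeR adjusted p = 0.00695), Tagln by -1.60 ± 0.34 (edgeR adjusted p = 0.00846), Sox18 by -1.41 ± 0.36 (edgeR adjusted p = 0.0181), Rgs5 by -1.24 ± 0.27 (edgeR adjusted p = 0.00877) and Ctla2a by -1.94 ± 0.42 (edgeR adjusted p = 0.00845). For heavy over input 0 rose and 5 fell, against 12.6% and 16.3%. These were Acta2 (-1.81 ± 0.52, edgeR adjusted p = 0.0197), Vtn (-1.61 ± 0.44, edgeR adjusted p = 0.0144), Tagln (-1.49 ± 0.35, edgeR adjusted p = 0.0072), Erg (-1.07 ± 0.34, edgeR adjusted p = 0.0312) and Rgs5 (-0.99 ± 0.31, edgeR adjusted p = 0.0301). Leaving out KO HHT replicate 2, 3 genes passed for the medium shift and 2 for the heavy shift, and 2 passed for the latter if WT HHT replicate 2 was left out. DESeq2 called 0 and 2 genes for these shifts, and the comparisons within either genotype alone, from the fit of all 18 libraries, called 0.

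**Figure D3:**
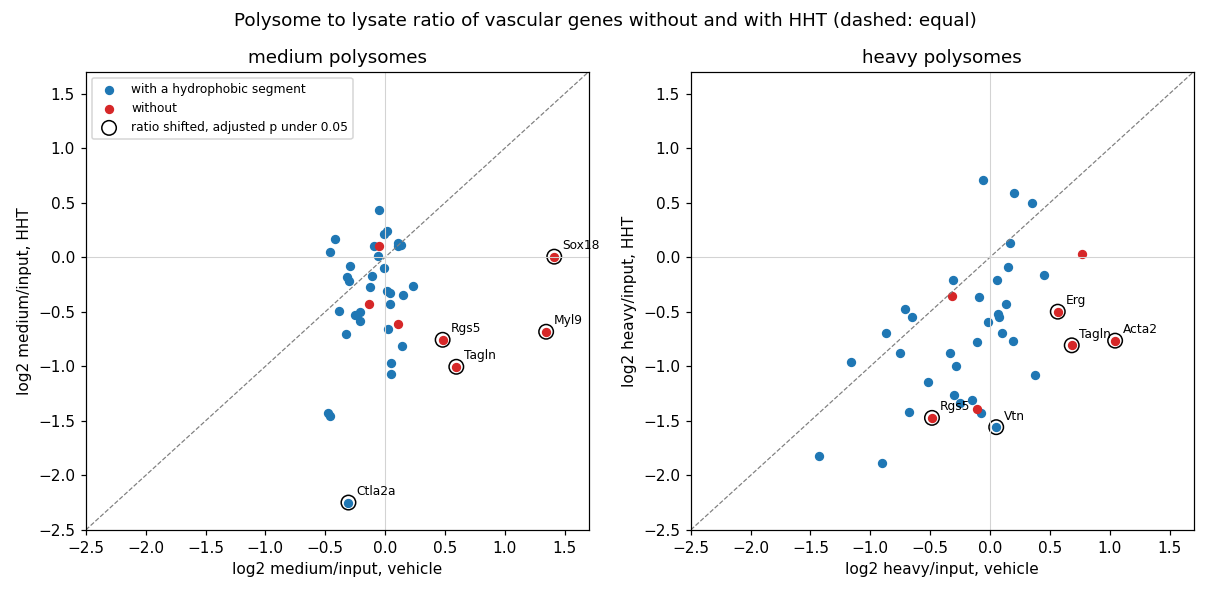
Log2 ratio of medium (left) and heavy (right) polysomes to input for each vascular gene under vehicle (x axis) and HHT (y axis), with blue for genes with a hydrophobic segment, red for genes without, and rings around the 5 genes per panel whose ratio shifted at an adjusted p of 0.05. Ringed genes all lie below the dashed line of equal ratios, and Sox18 and Myl9 lie farthest right in the medium panel at 1.41 and 1.35.

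Polysome to input ratios under HHT tended to be lower for vascular genes with short coding sequences, with exceptions, and over all genes heavy ratios related to length under both treatments. Over the 40 genes, Spearman's rho between coding length and the ratio under HHT was 0.65 for medium and 0.58 for heavy over input, and 0.28 and 0.64 over all 13031 genes with a coding sequence. Under vehicle it was -0.12 for medium and 0.40 for heavy over input, and -0.40 and 0.60 over all these genes. The genes share the same libraries, so these are descriptions. The shortest coding sequences were those of Ly6a (405 bases), Ly6e (411), Ctla2a (414) and Ly6c1 (444), with heavy ratios under HHT of -1.08, -0.69, -1.88 and -1.83. The longest were Vwf and Notch3, with ratios of 0.13 and 0.50. Vtn, at 1437 bases, and Podxl, at 1512, differ little in length, and their heavy ratios were -1.56 and 0.71.

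**Figure D4:**
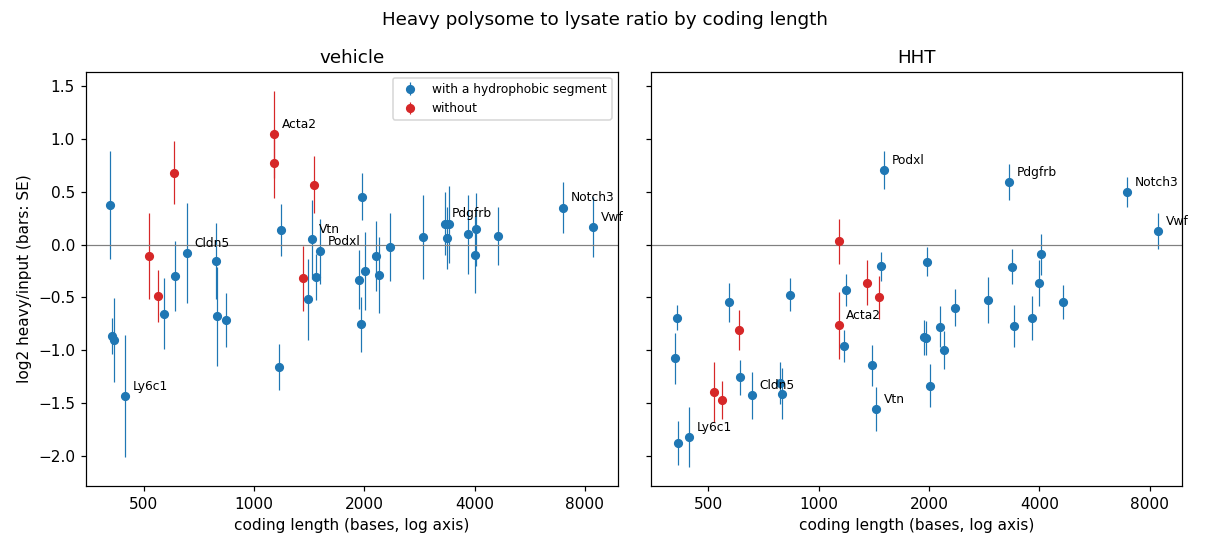
Log2 heavy to input ratio (y axis, bars are SE) against coding length (x axis, log scale) for the 40 vascular genes under vehicle (left) and HHT (right), coloured by the hydrophobic segment. Under HHT the ratio is lowest among short genes such as Ly6c1 and Ctla2a and above 0 for Podxl, Pdgfrb, Notch3, Vwf and, by a small margin, Sox18.

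Genotype was compared under HHT, where it has 2 libraries a side, and this comparison called no gene of the table. Between KO and WT under HHT, edgeR called 0 of 40 in input, medium and heavy (0.0% of all genes each), and the interaction of genotype with treatment called 0 in each as well (0.0%). DESeq2 also called 0 of the 40 throughout, with any gene that lacked its adjusted p counted as not called. Fmr1 itself, whose levels did not overlap between genotypes, differed in KO by -1.995 (log2) in input, -1.61 in medium and -1.54 in heavy, and missed the threshold with edgeR adjusted p of 0.0647, 0.722 and 0.751. A count of 0 therefore does not show that the vascular genes were alike in the 2 genotypes. Unadjusted p fell under 0.05 for 1 of the 40 in each fraction under HHT (Cd93, Tm4sf1 and Egfl7), against 679, 387 and 412 of all 13973 genes. In the interaction it did so for 1, 1 and 0 (Vtn and Tm4sf1), against 214, 187 and 104 of all genes. The largest of these was the input interaction of Vtn at -1.48 ± 0.57 (edgeR adjusted p = 1.00), a gene whose vehicle input level was 3.74 CPM in WT and 11.5 CPM in KO. The median difference of KO from WT under HHT over the 40 genes was -0.01 in input, 0.00 in medium and -0.08 in heavy on the log2 scale. With 1 library a side, vehicle KO exceeded vehicle WT for 22 of 40 genes in the lysate, 20 in medium and 22 in heavy polysomes.

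Other genes of the vessel wall were read from lists of signals, barrier genes, matrix and contractile proteins. The counts below stand against all genes, of which 12.2% rose in input, 25.4% in medium and 27.1% in heavy, while 0.215%, 21.5% and 24.7% fell. They also stand against the higher shares that rose among genes with a hydrophobic segment, given above. Of 13 basement membrane genes, 9 rose in input, 10 in medium and 9 in heavy, and none fell, and all 13 encode a segment. The collagen-binding protein Sparc rose in input by 1.51 ± 0.15 (edgeR adjusted p = 0.00097), the laminin gamma chain Lamc1 in medium by 1.68 ± 0.26 (edgeR adjusted p = 0.000252) and heavy by 1.89 ± 0.26 (edgeR adjusted p = 4.67e-05), and the collagen chain Col4a2 in heavy by 2.14 ± 0.32 (edgeR adjusted p = 0.000102). Of 22 further barrier junction, transcytosis and transport genes, 10 rose in input, 15 in medium and 14 in heavy, and 0, 1 and 1 fell, with a segment in 20 of the 22. The lipid carrier Mfsd2a rose in input by 1.29 ± 0.21 (edgeR adjusted p = 0.0019), the lactate carrier Slc16a1 in medium by 2.05 ± 0.25 (edgeR adjusted p = 0.000101) and the amino acid carrier Slc7a5 in heavy by 1.66 ± 0.19 (edgeR adjusted p = 1.48e-05).

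Of 20 vascular growth factor and Notch genes, 3 rose in input, 10 in medium and 12 in heavy, and 0, 3 and 1 fell. A segment is encoded by 15 of these 20. The sphingosine phosphate receptor S1pr1 rose in input by 0.81 ± 0.14 (edgeR adjusted p = 0.00258), the VEGF co-receptor Nrp1 in medium by 1.46 ± 0.24 (edgeR adjusted p = 0.000363) and Vegfa in heavy by 1.52 ± 0.16 (edgeR adjusted p = 8.01e-06). Of 12 Wnt and barrier induction genes, 1 rose in input (the Wnt7 co-receptor Reck, 0.82 ± 0.21, edgeR adjusted p = 0.0179), 5 in medium and 6 in heavy. In that list beta-catenin, Ctnnb1, which has no membrane span, rose in medium by 0.84 ± 0.11 (edgeR adjusted p = 0.000155) and was the 1 gene to fall in heavy, -0.95 ± 0.11 (edgeR adjusted p = 1.4e-05). Of 12 contractile and pericyte cytosol genes, 1 rose in input, 2 rose and 2 fell in medium, and 2 rose and 4 fell in heavy. A segment is encoded by 3 of these 12. With 12 genes, these counts lie near the shares of all genes. The gene that rose in input there was the membrane proteoglycan Cspg4 (1.38 ± 0.26, edgeR adjusted p = 0.00391), which also rose in medium (1.52 ± 0.27, edgeR adjusted p = 0.000647), and among those that fell in heavy were the actin regulators Cald1 (-1.20 ± 0.21, edgeR adjusted p = 0.000278) and Smtn (-1.11 ± 0.20, edgeR adjusted p = 0.000449).

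Markers of other cells near vessels moved in the same comparison. Of 11 perivascular and meningeal fibroblast genes, 8 rose in input, 6 in medium and 3 in heavy, and their sum was 297.5 to 374.0 CPM under HHT against 135 and 175 CPM under vehicle in input. Of 14 microglial genes, 9 rose in input, 4 rose and 1 fell in medium, and 0 passed in heavy with edgeR (0 there also at an unadjusted p of 0.05), and their input sum was 224 to 283 against 113 and 152 CPM. Of 4 perivascular macrophage genes measured out of 8, only Mrc1 rose in input (0.86 ± 0.24, edgeR adjusted p = 0.0271), none passed in medium, and F13a1 fell in heavy (-0.89 ± 0.26, edgeR adjusted p = 0.0104). Of 3 blood cell genes measured out of 11, 0 passed in input, where 1 had an unadjusted p under 0.05 and the sum was 4.52 to 30.9 under HHT against 5.77 and 15.6 CPM. The part of other cells in the vascular changes was not tested.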

How the data were processed

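RNA of slice lysates and of medium and heavy polysomes was sequenced from 200 ng per library with a strand-specific kit and 12 PCR cycles, per the labels' protocols. For 13973 genes the authors deposited expected counts, estimated rather than whole (0 of 251514 values are whole within 1e-06). The other deposited table holds a score that the authors call TPM, but 10 of 18 columns exceed the sum TPM can reach. It is named rescaled TPM here and serves for levels per length. The submitters' processing notes name DESeq2 1.16.1, RSEM 1.2.11, Bowtie2 2.1.0, Trimmomatic 0.32 and the build mm10, with no roles. The names of the deposited tables mention 2 batches, but the sources used here do not say which libraries these are, whether they were adjusted or how genes were selected. If batches were adjusted, the spread between replicates would be understated.

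After rounding, 12 group means over all 18 libraries were fitted by the quasi-likelihood method of edgeR 4.0.16 (R 4.3.3) with TMM scaling, with 7.36 prior and 6 residual degrees of freedom. Vehicle groups of 1 library are assumed to vary like the HHT groups. P-values are 2-sided and adjusted by Benjamini-Hochberg over all genes within each of 15 comparisons, with a threshold of 0.05, and comparisons averaged over genotypes weigh both equally. CPM use TMM-scaled totals. Input, medium and heavy of 1 replicate share a lysate. The HHT contrasts and the ratios share libraries, so they are not independent. P-values rest on the spread between replicate HHT pools of slices, and the main fit treats fractions of 1 lysate as independent. Differences between HHT replicates correlated over genes at 0.349 in WT and 0.211 in KO between input and medium. Between input and heavy the values were 0.0509 and 0.056. The method was run on simulated independent libraries with changed genes in HHT input only. That run does not bear on the ratio or genotype comparisons or on shared lysates.

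Other settings were omission of each HHT lysate, fewer fractions, no filter, scaling by total counts or RLE, and blocks for lysate or replicate number. DESeq2 1.42.0 and limma 3.58.1 on log2(rescaled TPM + 1) were also run. Comparisons within each genotype alone used the fit of all 18 libraries, with the spread shared by both genotypes. Fits of HHT replicate 1 or 2 alone were chosen after seeing the data. They dropped genotype, so WT and KO libraries served as replicates.

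The listed genes and all other gene lists were chosen with earlier results of these data known. Any listed gene may be named. Values per library are given for the 3 of each role with the highest mean rescaled TPM (all of a role with 4 or fewer), and fold changes for up to 4 per role and direction, plus Cldn5, Cdh5, Flt1, Vtn, Pdgfrb, Rgs5 and Acta2. Of each other list up to 3 genes with the smallest adjusted p are named. Coding sequences came from GENCODE M21, 1 transcript per gene.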

Additional observations from a re-analysis of the deposited data

Results flagged for a closer look

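In 10 cases the change of a polysome to input ratio with HHT, tested as a difference between treatments, passed an adjusted p of 0.05 with edgeR. All were falls. Of all genes, 7.09% rose and 10.2% fell for medium over input, and 12.6% and 16.3% for heavy over input. The counts that fell lie near these shares. Medium over input shifted by -1.41 (log2) for Sox18, -1.24 for Rgs5, -1.60 for Tagln, -2.03 for Myl9 and -1.94 for Ctla2a. Heavy over input shifted by -1.07 for Erg, -1.61 for Vtn, -0.99 for Rgs5, -1.81 for Acta2 and -1.49 for Tagln. Rgs5 and Tagln are in both sets. Vtn and Ctla2a are the genes with a hydrophobic segment among the 8 named here. Each shift compares 4 HHT lysates with 2 vehicle lysates.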

How the results depend on the processing

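Of 1853 checks of called values for single genes, 1511 stayed past 0.05, 342 kept their direction but missed it and 0 reversed. The setting without a filter removed no gene fewer than the main fit, so its 121 checks repeat that fit and had to agree. Of 213 recomputed counts of called genes, 175 were within 1.5 times, where 0 in both fits was scored as within. With DESeq2 the counts were 12 (24 in edgeR) in input, 16 (26) in medium, 4 (14) for medium over input under HHT, 0 (2) and 2 (4) for medium and heavy over input under vehicle, and 0 (5) and 2 (5) for the medium and heavy shifts with HHT. DESeq2 gave an adjusted p for 100 of 121 called values. Those without it were left out of the checks but counted as not called in these counts. With total counts, 10 passed for heavy over input under vehicle and 3 for the heavy shift. Total counts moved the median of all genes to -0.28 and -0.41 for heavy over input under HHT and vehicle and 0.16 for the heavy shift. With the fractions compared alone, 3 heavy shifts passed. In WT slices alone the counts were 12 in input, 13 in medium, 6 and 18 (29 in all slices) for medium and heavy over input under HHT, 1 and 2 under vehicle and 0 for both shifts. In KO slices alone they were 0, 13, 6 in heavy (12 in all slices), 5 for medium over input under HHT, 0 and 2 under vehicle and 0 for both shifts. The counts within 1 genotype come from the fit of all 18 libraries and are not separate fits of each genotype. Those of their comparisons that involve vehicle use 1 vehicle library per fraction. With limma, 24 passed in heavy and 9 for heavy over input under vehicle. With HHT replicate 1 alone and genotype dropped, 21 passed in heavy, 6 for medium over input under HHT and 9 for heavy over input under vehicle. With HHT replicate 2 alone and genotype dropped, 8 heavy shifts passed. Leaving out 1 HHT lysate gave 6 to 12 for medium over input under HHT, 3 to 5 medium shifts and 2 to 5 heavy shifts. The cause was not tested. No shares of all genes are set beside the counts of other settings, here and below. These counts therefore do not tell a change in the listed genes from a change in how many genes passed.

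Replicate numbers of WT and KO pair nothing that the labels state. With 2 pairs, deviations correlated at 0.323 in input, 0.165 in medium and 0.00332 in heavy. A replicate block gave 26 genes in input, 26 in medium, 15 in heavy, 8 heavy shifts and 0 for genotype, and 120 of 121 called values stayed past 0.05. With a lysate block, 59 of 59 did.

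Precision is limited by 2 vehicle libraries per fraction and by low counts. The median SE of a listed gene was 0.23 in input, 0.26 in medium and 0.29 in heavy on the log2 scale.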

Other observations

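Markers of cells away from vessels were read in the same comparison of HHT with vehicle, in which 12.2%, 25.4% and 27.1% of all genes rose in input, medium and heavy and 0.215%, 21.5% and 24.7% fell. Of 14 astrocyte genes, 7 rose in input, 9 rose and 2 fell in medium, and 9 rose and 4 fell in heavy. The gap junction protein Gja1 rose in input by 1.30 ± 0.18 (edgeR adjusted p = 0.0011) and in medium by 1.66 ± 0.19 (edgeR adjusted p = 9.52e-05), while the glycolytic enzyme Aldoc fell in heavy (-2.33 ± 0.20, edgeR adjusted p = 3.6e-06). Of 11 oligodendrocyte genes, 4 rose in input, 6 rose and 3 fell in medium, and 6 rose and 3 fell in heavy. The myelin adhesion protein Mag rose in input by 1.42 ± 0.19 (edgeR adjusted p = 0.0011), and the claudin of myelin, Cldn11, in heavy by 1.58 ± 0.17 (edgeR adjusted p = 1.07e-05), while the cytosolic myelin enzyme Cnp fell in heavy (-1.08 ± 0.12, edgeR adjusted p = 1.02e-05).

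Of 12 neuronal genes, 2 rose in input, 6 rose and 1 fell in medium, and 2 rose and 8 fell in heavy. The synaptic vesicle protein Syt1 rose in input (1.02 ± 0.23, edgeR adjusted p = 0.0103), medium (1.87 ± 0.25, edgeR adjusted p = 0.000132) and heavy (2.20 ± 0.25, edgeR adjusted p = 1.45e-05), whereas the neurofilament Nefl fell in heavy (-1.44 ± 0.12, edgeR adjusted p = 3.38e-06). Of 8 choroid plexus and ependymal genes measured out of 9, 3 rose in input, among them the secreted carrier Ttr (1.22 ± 0.23, edgeR adjusted p = 0.00382). In medium 3 rose and 2 fell, and in heavy 2 rose and 1 fell. Of the 3 blood genes, the haemoglobin chain Hba-a2 fell in medium (-1.31 ± 0.46, edgeR adjusted p = 0.0318), and its reads could be split with near-identical globin genes.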
